A study of Mus musculus with 6 samples.

Results

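The p38 and JNK stress kinases were examined as a group of 10 genes chosen by symbol: the p38 genes Mapk14, Mapk11, Mapk12 and Mapk13, the p38-activating kinases Map2k3 and Map2k6, the p38 effector kinase Mapkapk2, and the JNK genes Mapk8, Mapk9 and Mapk10. All 10 were among the 16894 genes of the deposited table, and all 10 passed the filter on low values that left 14776 genes tested. Fibroadipogenic progenitors (FAPs), mesenchymal cells of skeletal muscle that can become fibroblasts or adipocytes, came from C57BL/6 mice of both sexes, 3 to 6 months old. They had been isolated from hindlimb muscles as CD45-, CD31-, Itga7- and Sca1+ cells and expanded in culture. Bulk RNA-seq compared 3 libraries of control FAPs with 3 of senescent FAPs, which had received 20 μM of the topoisomerase poison etoposide for 48 h and then 5 days of normal medium. The model is therefore drug-induced senescence of cultured cells, with no genetic change in either group.

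p38 and JNK are mitogen-activated protein kinases that respond to stress. Upstream MAP3Ks phosphorylate MAP2Ks, and the MAP2Ks then phosphorylate a threonine and a tyrosine in the activation loop of the kinase, which switches it on. MAP2Ks encoded by Map2k3 and Map2k6 act on p38, active p38 phosphorylates the kinase MK2 (Mapkapk2), and MK2 acts on proteins that control the stability of cytokine mRNAs. p38 and JNK activity is set mainly by phosphorylation, which RNA levels do not measure, and p38 signaling is known for its part in cell cycle arrest and in the secretory phenotype of senescent cells.

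The loops that carry this switch are shown because they separate the families and show how far the genes can be told apart by sequence. Each stretch runs from the codons of the conserved Asp-Phe-Gly motif to those of Ala-Pro-Glu, read from GENCODE M21 transcripts on GRCm38, and capitals mark the codons of the phosphorylated threonine, the residue between, and the phosphorylated tyrosine. The p38 gene expressed most, Mapk14, and the one that rose most, Mapk13, come first.
Mapk14: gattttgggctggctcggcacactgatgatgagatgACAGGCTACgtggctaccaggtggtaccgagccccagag
Mapk13: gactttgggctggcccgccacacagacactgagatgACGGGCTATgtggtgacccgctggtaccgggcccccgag
Mapk12: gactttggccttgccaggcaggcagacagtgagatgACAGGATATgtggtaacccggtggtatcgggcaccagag
Mapk11: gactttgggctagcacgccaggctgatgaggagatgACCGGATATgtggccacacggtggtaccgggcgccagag
Mapk8: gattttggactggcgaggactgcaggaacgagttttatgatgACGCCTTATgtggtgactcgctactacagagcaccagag
Mapk9: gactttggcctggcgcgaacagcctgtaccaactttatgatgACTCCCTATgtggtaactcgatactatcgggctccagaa
Mapk10: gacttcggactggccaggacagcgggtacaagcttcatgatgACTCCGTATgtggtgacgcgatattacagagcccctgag
The middle codon encoded glycine in all 4 p38 genes and proline in all 3 JNK genes, and the loop was 75 bases long in p38 and 81 in JNK. The loops of Mapk13 and Mapk14 differed at 15 of 75 bases, those of Mapk12 and Mapk13 at 14, and those of Mapk8 and Mapk9 at 20 of 81. Over the aligned coding sequences, Mapk14 and Mapk13 were identical at 65.5% of bases. The longest run shared anywhere in their whole principal transcripts was 15 bases. The aligned coding sequences of Mapk9 and Mapk10 were identical at 77.1%, and the longest run shared by their whole principal transcripts was 23 bases. How the counting treated reads that fit several genes was not given in the sources used here. On GRCm38, Mapk14 (chr17:28691329-28748406) and Mapk13 (chr17:28769297-28780233) lie on the same strand, 20890 bases apart with 0 annotated genes between them. Mapk12 (chr15:89130584-89140703) and Mapk11 (chr15:89142486-89149628) are neighbors in the same way, 1782 bases apart.

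The libraries of each group are given in the order of their replicate numbers, 1 to 3. Genes received 41412179 to 59912520 reads per library, and 1 read was worth 0.0167 to 0.0225 CPM, the deposited unit, in which reads are divided by a library size scaled in edgeR. The senescence marker Cdkn1a, an inhibitor of cyclin-dependent kinases, rose from 290 ± 40.5 to 1038 ± 21.4 CPM (SD, n = 3 in each group). Of the proliferation genes, Mki67 fell by 3.55 and Ccna2 fell by 3.84 on the log2 scale, whereas Cdkn2a did not pass the test (log2 fold change 0.13). Of 6 FAP markers, Ly6a, Cd34 and Dcn rose by 0.81, 1.60 and 1.79 on the log2 scale, Col1a1 fell by 2.29, and Pdgfra (192 and 218 CPM in control and senescent FAPs) and Col3a1 did not pass. The defining markers of leukocytes (Ptprc), satellite cells (Pax7) and Schwann cells (Sox10) were not among the genes of the table. In bulk RNA, fewer cells of a type and less RNA per cell cannot be told apart.

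Senescence came with a rise of 3 of the 10 genes, a fall of 4 and no called change in 3, calling genes by limma where the p adjusted over all genes (Benjamini-Hochberg) was under 0.05. Among all genes tested, 21.8% were higher and 24.3% lower by the same rule. Mapk13, Mapk9 and Mapk10 rose, and Mapk14, Mapk12, Map2k3 and Mapkapk2 fell. Mapk10 passed the filter on low values only through the senescent libraries, so its call was bound to go that way, and without it 2 of 9 genes were higher and 4 lower. The median log2 fold change was -0.22 over the 10 genes and -0.31 over the 9, against -0.03 over all genes tested. In 8 of the 10 genes (7 of the 9) the libraries of the groups did not overlap, which was so for 57.4% of all genes. At the study's own threshold, a log2 fold change beyond 1 in size with p under 0.01 before adjustment, Mapk13 (higher, as were 6.93% of all genes) and Mapk12 (lower, as were 3.9%) passed in limma. With edgeR, the study's tool, run on the recovered reads, Mapk10 passed as well, as it did with DESeq2 or a pseudocount of 0.1. Fold changes are on the log2(CPM + 0.5) scale, senescent minus control, which understates changes of genes with few reads.

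**Figure D1:**
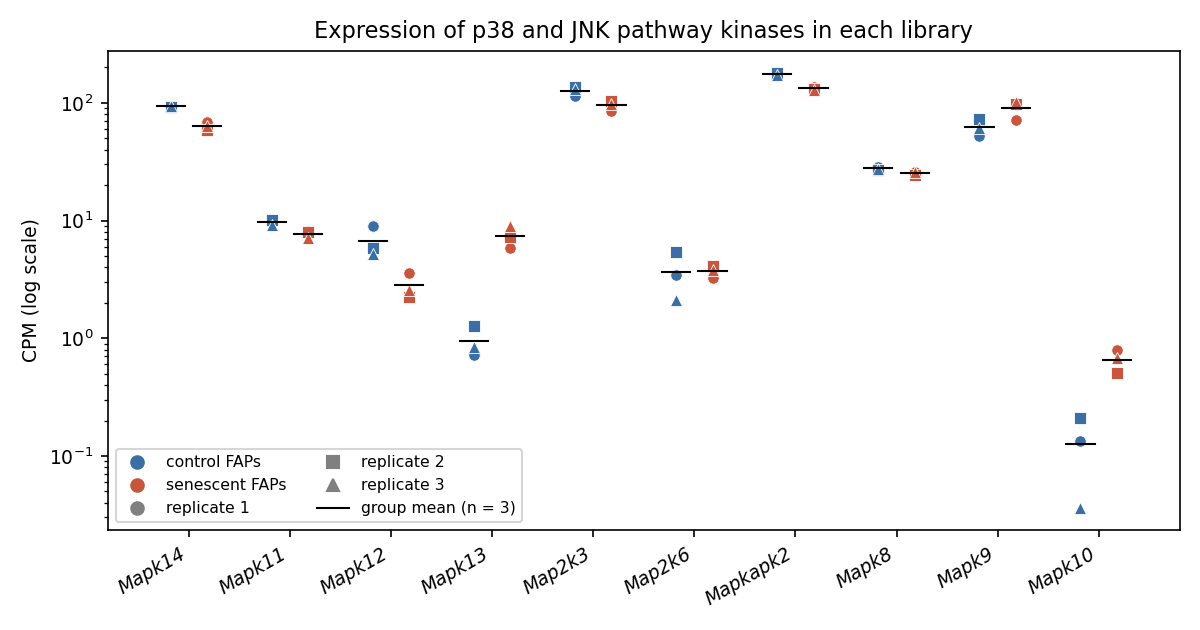
CPM on a log axis for each of the 10 genes in every library, with control FAPs in blue, senescent FAPs in red, a marker shape for each replicate number and a line at the group mean (n = 3). Mapk13 and Mapk10 lie higher and Mapk14 and Mapk12 lower in all 3 senescent libraries, while the groups of Map2k6 and Mapk9 overlap.

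Mapk14 encodes p38 alpha, the widely expressed form. It had 93.7, 91.4 and 94.9 CPM in control libraries 1 to 3, and 68.2, 59.3 and 63.8 CPM in senescent libraries 1 to 3. Every senescent library lay below every control library, and the control libraries lay close together. The mean fell from 93.4 ± 1.81 to 63.8 ± 4.48 CPM (SD, n = 3), a log2 fold change of -0.55 (SE 0.07, adjusted p = 0.00122 from limma). Division by library totals alone, without edgeR's scaling, gave -0.34 and the gene still passed. The span of Mapk14 overlaps by 618 bases with that of the annotated gene AC170998.1 on the same strand. Whether the overlap holds exons or affects the counted reads was not tested.

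Mapk13, which encodes p38 delta, moved the other way and by more than any other of the 10 genes. Control libraries 1 to 3 held 0.714, 1.27 and 0.844 CPM, from 32, 67 and 47 reads. Senescent libraries 1 to 3 held 5.88, 7.31 and 8.91 CPM, from 296, 437 and 396 reads. The gene was low but counted in all control libraries, and the lowest senescent library stood well above the highest control library. The mean rose 7.80-fold, from 0.944 ± 0.293 to 7.37 ± 1.52 CPM (SD, n = 3), and the log2 fold change was 2.45 (SE 0.21, adjusted p = 2.59e-04 from limma). Within pairs of the same replicate number the log2 difference was 2.39, 2.14 and 2.81. The genes whose pattern over the 6 libraries lay nearest to Mapk13 were Gda, which encodes guanine deaminase, Klra2, a lectin-like receptor gene of the Ly49 family, and Map7d2, with root mean square differences of 0.09, 0.10 and 0.12 on the centred log2 scale. Klra2 and Map7d2 had only 0.0446 to 0.361 and 0.268 to 0.361 CPM in control libraries, and 2.085 to 3.533 and 3.336 to 4.725 CPM in senescent libraries. Both passed the filter on low values through the senescent libraries alone, so their direction was bound to be upward. The distances include the pseudocount, which understates changes of genes with few reads. For Klra2 and Map7d2 a small distance therefore does not show a fold change in CPM like that of Mapk13.

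Some genes of other cell types moved with the same contrast. The summed level of the 5 listed leukocyte markers of 7 was 8.92 to 12.1 CPM in control and 21.7 to 26.6 CPM in senescent FAPs. Of these, Cd53 and Cd68 rose, Itgam had 0 to 0.067 CPM in control and 0.516 to 0.837 CPM in senescent libraries, Csf1r had 6.74 and 7.56 CPM, and Ptprc and Adgre1 were not in the table. Of 5 epithelial markers only Cdh1 was listed, at 0 to 0.0718 CPM in control and 0.602 to 1.04 CPM in senescent FAPs. The summed endothelial markers ranged from 18.0 to 38.4 CPM in control and 22.2 to 29.2 CPM in senescent FAPs, and the pericyte markers from 1205 to 1393 and 1027 to 1063 CPM. Within these sums Pecam1 and Rgs5 rose by 0.89 and 1.54 on the log2 scale, while Kdr fell by 0.74, Cspg4 fell by 0.77 and Mcam fell by 0.81. The part of these cells, and of the fall in proliferation genes, in the change of Mapk13 or of any other gene named here was not tested.

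Mapk12 encodes p38 gamma, a form known from skeletal muscle. It had 9.02, 5.86 and 5.19 CPM in control libraries 1 to 3, and 3.61, 2.26 and 2.57 CPM in senescent libraries 1 to 3. All senescent libraries lay below all control libraries, and replicate 1 was the highest of its group in both conditions. The mean fell from 6.69 ± 2.04 to 2.81 ± 0.711 CPM (SD, n = 3), a log2 fold change of -1.10 (SE 0.24, adjusted p = 0.00797 from limma). Without control replicate 1 or senescent replicate 2 it was -0.88 or -0.98, still called by limma but short of the study's threshold. The log2 differences within numbered pairs were -1.21, -1.20 and -0.89. The nearest patterns to Mapk12 were those of Prelid2, D130058E05Rik and Nt5dc2, at root mean square differences of 0.12, 0.12 and 0.13. D130058E05Rik had 0.5895 to 1.406 CPM in control and 0.084 to 0.338 CPM in senescent libraries. It passed the filter on low values through the control libraries alone. At such levels the pseudocount understates changes, so its small distance does not show a fold change in CPM like that of Mapk12. Of the myogenic markers, Acta1, the skeletal muscle actin gene, fell by 1.49 on the log2 scale, Itga7 rose by 0.83, Des did not pass, and the other 5 of 8 were not in the table; the part of muscle cells in the change of Mapk12 was not tested.

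Mapk11 encodes p38 beta, the form closest to p38 alpha. It had 9.98, 10.1 and 9.08 CPM in control libraries 1 to 3 and 8.08, 8.01 and 7.13 CPM in senescent libraries 1 to 3. The senescent libraries all lay below the control libraries, by a small margin. The log2 fold change of -0.31 (95% interval -0.58 to -0.04) did not pass after adjustment over all genes (adjusted p = 0.0608 from limma). It passed with no variance trend (adjusted p = 0.0359 from limma). The neighboring genes were compared by their ratio within each library. On the log2(CPM + 0.5) scale, the ratio of Mapk13 to Mapk14 went from -6.04 ± 0.31 to -3.05 ± 0.34 (SD, n = 3), and that of Mapk12 to Mapk11 from -0.54 ± 0.35 to -1.33 ± 0.28. With no pseudocount, a choice made after values were seen, these were -6.67 ± 0.45 and -3.13 ± 0.36 for Mapk13 to Mapk14, and -0.58 ± 0.38 and -1.49 ± 0.33 for Mapk12 to Mapk11. Neither ratio overlapped between groups on either scale, and each gave p = 0.1 in a two-sided exact permutation test, the smallest that 3 libraries against 3 allow (over 5 ratios the adjusted p was 0.1 with the pseudocount and 0.125 without).

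**Figure D2:**
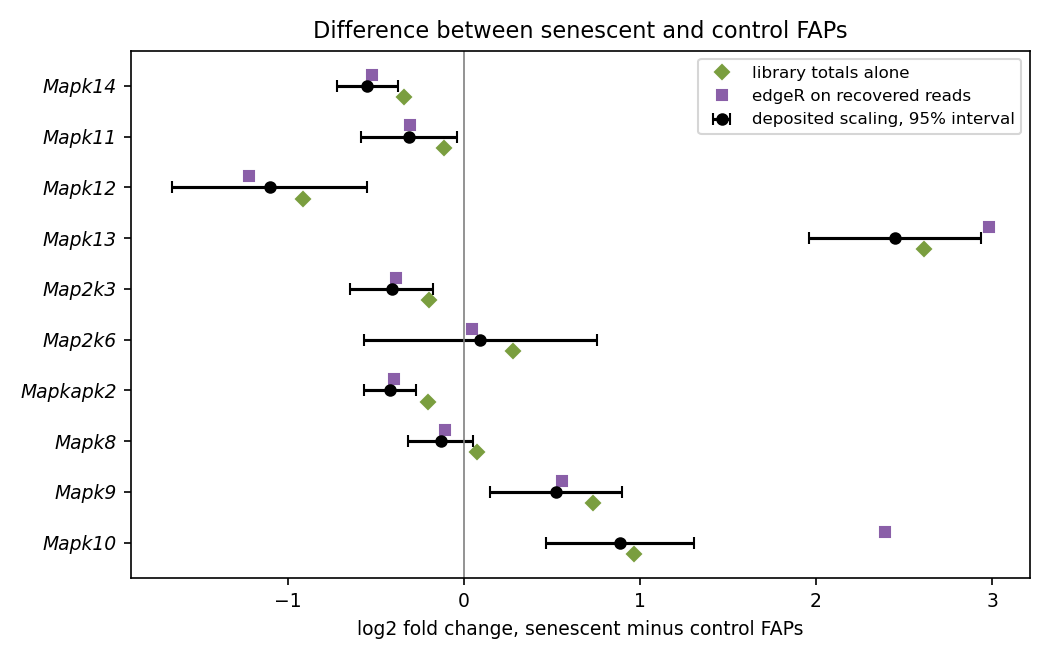
Log2 fold change (senescent minus control) of each gene with its 95% interval from limma on the deposited scaling (black), beside limma after division by library totals alone (green) and edgeR on recovered reads (purple). Mapk13 has the largest value, 2.45, and Mapk12 the lowest, -1.10, and Mapk8 changes sign to 0.08 with library totals alone.

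Of the p38-activating MAP2Ks, Map2k3 fell and Map2k6 did not pass the test. Map2k3, which encodes MKK3, had 115, 136 and 131 CPM in control libraries 1 to 3 and 84.8, 105 and 97.7 CPM in senescent libraries 1 to 3. All senescent libraries were below all control libraries, and the log2 fold change was -0.41 (SE 0.10, adjusted p = 0.0139 from limma). With division by library totals alone, Map2k3 was at -0.20 and no longer passed (adjusted p = 0.171 from limma). Map2k6, which encodes MKK6, had 3.44, 5.46 and 2.12 CPM in control libraries 1 to 3 and 3.24, 4.12 and 3.83 CPM in senescent libraries 1 to 3. The senescent libraries lay within the spread of the control libraries. Its log2 fold change of 0.09 had a 95% interval from -0.57 to 0.76 (adjusted p = 0.808 from limma), so these libraries leave room for a change in either direction, and without control replicate 3 the value was -0.20. The log2 ratio of Map2k6 to Map2k3, taken from CPM with no pseudocount, was -5.07, -4.63 and -5.95 in the control libraries and -4.71, -4.67 and -4.67 in the senescent libraries. Control replicate 2 lay above all senescent libraries (p = 0.4 in the exact permutation test, and p = 0.1 with the pseudocount of 0.5).

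Mapkapk2, the gene of MK2, fell. It had 178, 181 and 173 CPM in control libraries 1 to 3 and 136, 132 and 129 CPM in senescent libraries 1 to 3. Both groups were tight and did not overlap, and the log2 fold change was -0.42 (SE 0.06, adjusted p = 0.00185 from limma), or -0.21 with library totals alone, still called. Mapkapk3, which encodes the related kinase MK3, rose instead. It had 20.7, 14.5 and 18.1 CPM in control libraries 1 to 3 and 33.0, 30.8 and 28.0 CPM in senescent libraries 1 to 3, again without overlap (log2 fold change 0.78, SE 0.14, adjusted p = 0.00359 from limma). The ratio of Mapkapk2 to Mapkapk3 on the log2(CPM + 0.5) scale was 3.30 ± 0.27 in control and 2.10 ± 0.08 in senescent FAPs (SD, n = 3), with p = 0.1 in the exact permutation test. The loci annotated as Gm37084 and Gm25549 overlap Mapkapk2 on its strand.

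Among the JNK genes, Mapk8 encodes JNK1 and Mapk9 encodes JNK2, both widely expressed, and Mapk10 encodes JNK3, known chiefly from neural tissue and heart. Mapk8 had 28.6, 27.0 and 27.6 CPM in control libraries 1 to 3 and 25.6, 24.3 and 25.9 CPM in senescent libraries 1 to 3. The groups were just apart, and the log2 fold change of -0.13 (95% interval -0.32 to 0.05) did not pass (adjusted p = 0.207 from limma). Without edgeR's scaling its sign turned, to 0.08. Processed pseudogenes are annotated within the spans of Mapk8 and Mapk10, and whether they overlap exons or affect the counted reads was not tested.

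Mapk9 had 52.5, 73.0 and 61.5 CPM in control libraries 1 to 3 and 71.9, 97.0 and 101.2 CPM in senescent libraries 1 to 3. Control replicate 2 lay just above senescent replicate 1, so the groups overlapped, while each senescent library was above the control library of the same number, by 0.45, 0.41 and 0.71 on the log2 scale. The mean went from 62.4 ± 10.3 to 90.0 ± 15.9 CPM (SD, n = 3), a log2 fold change of 0.52 (SE 0.16, adjusted p = 0.0312 from limma). This call was lost without any 1 of 4 libraries, with log2 fold changes of 0.41 to 0.52 in those cases. Without control replicate 1 or 3 the adjusted p was 0.0845 or 0.0775, and without senescent replicate 2 or 3 it was 0.109 or 0.111 (limma). It was 0.0508 with no variance trend and 0.00268 with the replicate block, which compares libraries of the same number (limma). The ratio of Mapk8 to Mapk9 on the log2(CPM + 0.5) scale went from -1.14 ± 0.28 to -1.80 ± 0.28 (SD, n = 3), with p = 0.1 in the exact permutation test.

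Mapk10 was close to the limit of detection. It had 6, 11 and 2 reads in control libraries 1 to 3 (0.134, 0.209 and 0.0359 CPM), and 40, 30 and 30 reads in senescent libraries 1 to 3 (0.794, 0.502 and 0.675 CPM). The senescent libraries were all higher, and the gene passed the filter on low values through them alone. Summed over the libraries, 19 reads stood against 100, a depth-adjusted ratio of 5.21 (exact 95% interval 3.17 to 9.02, which covers counting error only). The log2 fold change was 0.89 with limma, 0.45 with quantile normalization, where the call was lost, and 2.39 (edgeR) and 2.42 (DESeq2) with count models on the recovered reads, so its size depended on the scale. Among Schwann and neural markers, Sox10 was not listed, S100b rose by 1.12 on the log2 scale, and Ncam1 and Tubb3 went from 485 and 92.7 CPM in control to 349 and 65.9 CPM in senescent FAPs. Their part in the change of Mapk10 was not tested.

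To compare levels between genes, CPM were divided by the length of the exons of each gene in kilobases. In control FAPs the order by mean CPM per kb was Mapkapk2 (62.2), Map2k3 (57.9), Mapk14 (22.2), Mapk9 (13.1), Mapk8 (4.76), Mapk11 (3.95), Mapk12 (3.70), Map2k6 (1.23), Mapk13 (0.321) and Mapk10 (0.0123). The libraries of Mapkapk2 and Map2k3 overlapped, as did those of Mapk11 and Mapk12 and those of Mapk8 and Mapk12. Mapk8 was at 10.7 in control FAPs with the length of its principal transcript, a choice made after values were seen. In senescent FAPs Mapk9 (18.9) stood beside Mapk14 (15.2), with overlapping libraries. Mapk13 (2.51) lay beside Mapk11 (3.15), with overlapping libraries, and its mean was above that of Mapk12 (1.56). In senescent replicate 1, Mapk13 and Mapk12 were level, both at 2.00 CPM per kb.

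Within the p38 family, Mapk14 carried 73.6% ± 3.07 of the summed CPM per kb in control and 67.7% ± 1.14 in senescent FAPs (SD, n = 3). Mapk13 made up 0.770%, 1.47% and 0.977% in control libraries 1 to 3 and 8.51%, 11.8% and 13.5% in senescent libraries 1 to 3. Mapk12 went from 12.2% ± 3.20 to 6.91% ± 1.39, while Mapk11 held 13.1% ± 0.742 and 14.1% ± 1.29. The summed level, most of it from Mapk14, was 30.2 ± 1.21 CPM per kb in control and 22.4 ± 1.22 CPM per kb in senescent FAPs, without overlap. In the JNK family, Mapk9 carried 73.0% ± 3.76 in control and 80.9% ± 3.20 in senescent FAPs, and Mapk10 stayed below 0.5% in every library. The shares depended on the length used, those of JNK more than those of p38. With the length of the principal transcript, a choice made after values were seen, Mapk8 carried 44.8% and 33.9% instead of 26.9% and 18.9%. On that length Mapk14 carried 76.73% in control and 71.25% in senescent FAPs, Mapk11 11.57% and 12.56%, and Mapk13 0.9458% and 10.04%.

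**Figure D3:**
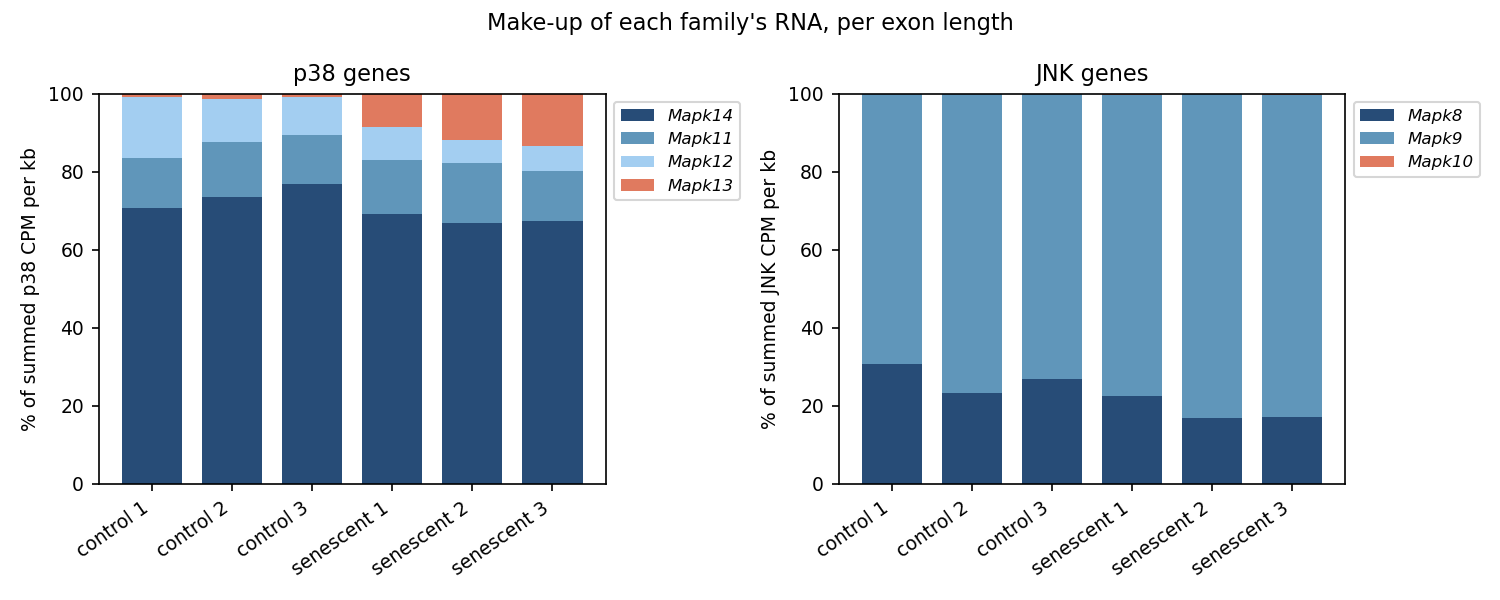
Stacked bars of the share of each gene in the summed CPM per kb of the p38 genes (left) and the JNK genes (right), 1 bar per library, from 0 to 100%. Mapk13 makes up 8.51% to 13.5% of the p38 sum in senescent libraries, and Mapk10 is too low to be seen in most bars.

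The other genes of the pathways were read from lists by role. Of 58 partners, 57 were tested, and 8 were higher, 10 lower and 39 not called (median log2 fold change -0.02), to be read beside the 21.8% and 24.3% of all genes; the difference was not tested. With the replicate block 12 were higher and 12 lower, against 24.2% and 26.7% of all genes. Division by library totals alone gave 18 higher and 2 lower, and Taok2, Mapkapk5, Dusp8, Dusp16, Elk1, Elk4 and Atf7, described next, were among those that lost their call. Without control replicate 3 or senescent replicate 2, 4 partners were lower, and without control replicate 1 or senescent replicate 3, 5 were.

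The MAP2Ks that activate JNK did not pass, with log2 fold changes of -0.06 for Map2k4 (which turned to 0.15 with library totals alone and 0.05 with quantile normalization) and 0.18 for Map2k7. Of 22 MAP3Ks and adaptors, 4 were higher and 2 lower. Map3k9 (MLK1) had 0.268 to 0.323 CPM in control and 1.23 to 1.42 CPM in senescent libraries, and passed the filter only through the latter; without it 7 of 56 partners were higher. Map3k12 (DLK), Map3k13 (LZK) and Zak, kinases that can act towards JNK, rose by 0.52, 0.59 and 0.40. Taok2 fell by 0.27. With 1 library left out in turn, Map3k13 no longer passed in 3 of 6 cases (highest adjusted p = 0.0686 from limma), Zak in 5 (0.106) and Taok2 in 4 (0.119), while Map3k12 passed in all.

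JIP proteins hold JNK and its upstream kinases together. Mapk8ip1 (JIP1) had 8.01, 6.98 and 7.72 CPM in control libraries 1 to 3 and 12.9, 12.4 and 12.9 CPM in senescent libraries 1 to 3, and rose by 0.72 (adjusted p = 0.00191 from limma). Mapk8ip3 (JIP3) did not pass at 0.31, but did with the replicate block (adjusted p = 0.0442 from limma). Spag9 (JIP4) was at -0.11, and turned to 0.10 with library totals alone and 0.03 with quantile normalization. Mapk8ip2 was not tested, with 0.0223 to 0.0761 CPM in control and 0.450 to 0.576 CPM in senescent FAPs.

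Other p38 effector kinases were split between 1 higher (Mapkapk3), 2 lower and 3 not called. Rps6ka4, which encodes the nuclear kinase MSK2, had 117, 104 and 95.4 CPM in control libraries 1 to 3 and 62.6, 57.9 and 55.5 CPM in senescent libraries 1 to 3. It fell by 0.84 (SE 0.09, adjusted p = 5.73e-04 from limma), farther than any other partner. Mapkapk5 fell by 0.42 (-0.21 with library totals alone, adjusted p = 0.0922 from limma, no longer called), though Adam1a and Gm42878 are annotated over most of its span. Rps6ka5 (MSK1), Mknk1 and Mknk2 did not pass, at 0.15, 0.06 and -0.20.

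Of 7 phosphatase genes that switch p38 and JNK off, 0 were higher and 2 lower by limma at an adjusted p under 0.05, and 2 were higher with the replicate block. Dusp8 and Dusp16, whose products act mainly on JNK and p38, fell by 0.67 and 0.30. Without 1 library, each lost its call in 5 of 6 cases (highest adjusted p 0.105 and 0.0997, limma). Of 12 transcription factors phosphorylated by p38 or JNK, Mef2a and Mef2c rose by 0.64 and 0.71, and Elk4, Elk1 and Atf7 fell by 0.36, 0.33 and 0.29. Without 1 library Elk1 no longer passed in 4 of 6 cases and Atf7 in 5 (highest adjusted p 0.0736 and 0.144, limma). With the replicate block Jund was lower as well (adjusted p = 0.0444 from limma), which made 4 lower. Among the mRNA-binding and chaperone substrates of MK2, Hnrnpa0 fell by 0.53 and the other 4 did not pass, at 0.13 for Zfp36, 0.37 for Zfp36l1, -0.28 for Elavl1 and -0.34 for Hspb1. With the replicate block Zfp36l1 was called higher and Hspb1 lower (adjusted p = 0.0446 and 0.0240 from limma).

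The ERK and atypical MAP kinases with their MAP2Ks served for comparison. Of 9 listed, 8 were tested, with 0 higher and 2 lower (median log2 fold change -0.10). Among all genes tested, 21.8% were higher and 24.3% lower. The 10 stress kinase genes had 3 higher and 4 lower, and without Mapk10 2 of 9 were higher and 4 lower. The difference between the lists was not tested. Mapk6 (ERK3) and Map2k2 (MEK2) fell by 0.25 and 0.45, and Mapk6 lost its call without any 1 of 5 libraries and Map2k2 without any 1 of 3. With library totals alone or quantile normalization 1 was higher and 0 lower, and without control replicate 1 or senescent replicate 2, 0 were lower.

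**Figure D4:**
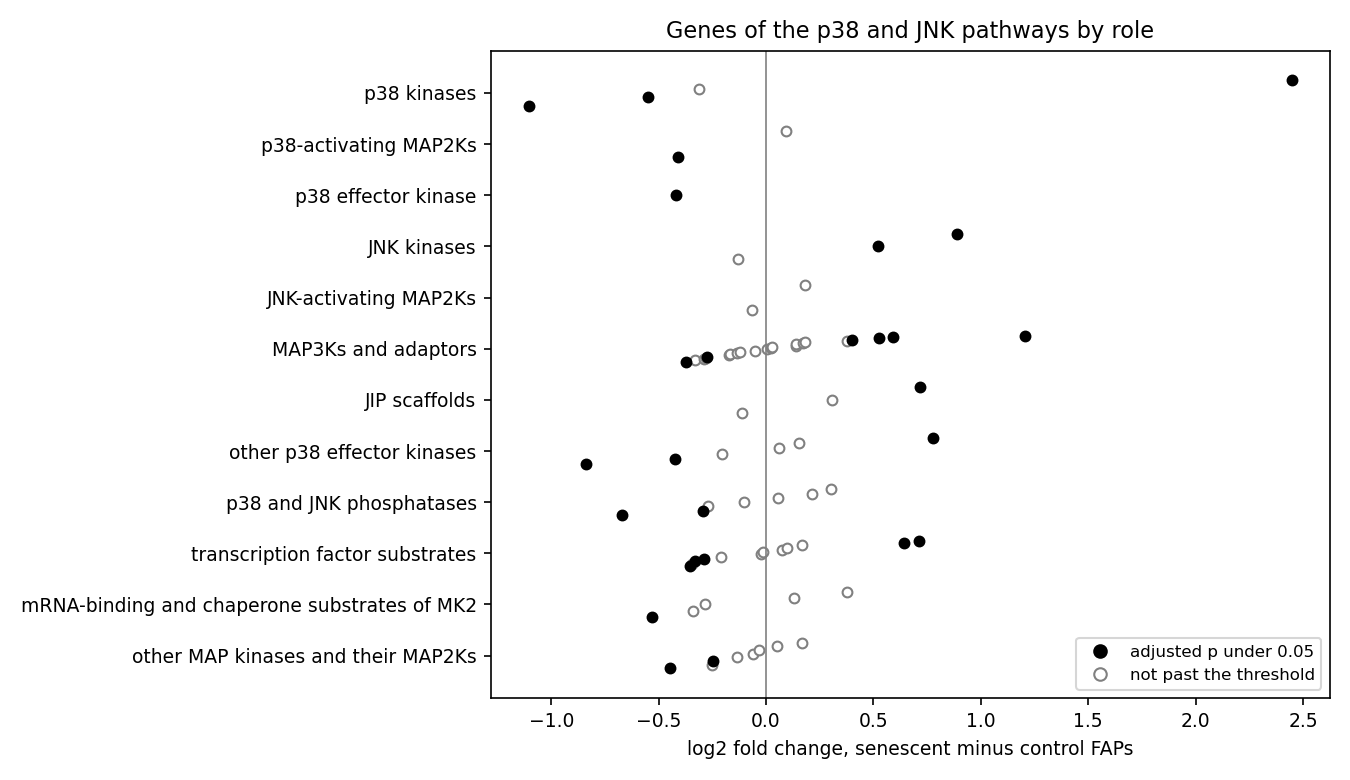
Log2 fold change (senescent minus control) of every tested gene by list, 1 point per gene, filled where the adjusted p from limma was under 0.05. The highest MAP3K is Map3k9 at 1.21, the lowest partner is Rps6ka4 at -0.84, and most partners lie near 0.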

How the data were processed

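RNA of control and senescent FAPs was sequenced as 3 TruSeq stranded mRNA libraries in each group. The authors processed the reads with edgeR 3.10 in R 3.6.0 on mm10 (per the submitters' processing notes) and deposited a signal of CPM relative to the effective library size, 1 value per gene and library. The aligner, the counter, the annotation, the use of strand and the gene filter are not given in the sources used here. Every deposited value was a whole multiple of 1 read within 0.01 read, so reads were recovered for 100% of values. The deposited scaling factors were 0.917 to 0.940 in control and 1.07 to 1.09 in senescent libraries. A single line that names no gene, with 0.0041% to 0.0070% of reads, was left out. The chi-square per gene between replicates was 14.9 to 149, so no library repeated another.

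A gene entered the test if 3 or more libraries reached 0.5 CPM. Two-sided tests were run in R 4.3.3 with limma 3.58.1, using log2(CPM + 0.5), a variance trend and Benjamini-Hochberg adjustment over all genes tested. The plan had assumed plain CPM, and the same test was kept. The code was tested on simulated data. Ratios were compared by exact permutation tests over samples. Exon lengths and positions came from GENCODE M21 on GRCm38, of the same assembly as mm10. The members, the lists and the tests were chosen with earlier results of these data known. All 10 members were named, and in each partner or comparison list every gene of lists of up to 6 genes and up to 5 called genes with the smallest p in longer lists, besides the 3 nearest patterns to the members with the largest rise and fall. Individual marker genes and Jund were named after their values were seen. Some marker genes are not reported here.

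The processing was varied by setting the pseudocount to 0.1 or 1, the filter to none or 2 CPM, and by median-of-ratios, quantile or library-total scaling, no variance trend, the replicate number as a block, each library left out in turn, and count models on recovered reads in DESeq2 1.42.0 and edgeR 4.0.16. Deviations from the group means of libraries with the same replicate number correlated at 0.54, 0.31 and 0.21 across genes, all over 0.1. Between libraries of unlike number the values ran from -0.36 to 0.15. Of these, control replicate 2 with senescent replicate 3 (0.15) was over 0.1 as well, so the rule did not separate the pairs cleanly. The numbers were still taken to pair the libraries. This pairing comes from the values, not from the labels. Nothing in the labels says that replicates came from separate animals, so p-values measure the spread between these libraries, which may be technical.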

Additional observations from a re-analysis of the deposited data

How the results depend on the processing

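Of the 10 stress kinase genes, 2 to 3 were called higher and 3 to 5 lower under all alternatives run, and the replicate block gave 3 and 4. The block changed the call of no stress kinase gene. Past the study's threshold, 2 genes were higher in place of 1 with a pseudocount of 0.1, edgeR or DESeq2. With a pseudocount of 1 or library totals alone 0 were lower, and 0 to 1 with a library left out. Partners called higher numbered 18 with library totals alone, and the share of all genes called on that scale is not given here. Partners called lower numbered 6 with quantile normalization and 2 with library totals alone, and 4 to 14 with a library left out. Of the other MAP kinases, 1 was higher with quantile normalization or library totals alone. The number lower was 0 with either, 1 with median-of-ratios scaling, no variance trend, edgeR or DESeq2, and 0 to 2 with a library left out. With quantile normalization the sign turned for Map2k6 (-0.0144), Map2k4 (0.047), Spag9 (0.0295) and Rps6ka5 (-0.0737). With library totals alone, which moved the median of all genes from -0.03 to 0.17, it turned for Mapk8 (0.0767), Map2k4 (0.148), Spag9 (0.101) and Mknk2 (0.0070). With a library left out, the log2 fold change ranged from -0.202 to 0.391 for Map2k6, from -0.119 to 0.324 for Rps6ka5, from -0.0410 to 0.161 for Mknk1, from -0.127 to 0.464 for Cdkn2a and from -0.0102 to 0.235 for Zfp36. None of the genes whose sign turned had passed the test, and the cause was not tested. For the paired ratios the smallest p that an exact sign-flip permutation test allows is 0.25. Mapk10, with 2 to 11 reads per control library, was outside the filter at 2 CPM, and its few reads limit its fold change.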
